A study of Mus musculus with 6 samples.

Results

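The genes described here are the intracellular machinery that makes, reads and removes cyclic AMP (cAMP) downstream of receptors coupled to the stimulatory G protein Gs. They were taken by gene symbol from the FPKM table (FPKM values are fragment counts scaled for library depth and gene length). The 41 symbols correspond to 42 of the 35275 rows, because Pde4d stands under 2 identifiers, and 39 of these rows also have read counts. The symbols fall into 11 families: Gs alpha subunits, adenylyl cyclases, protein kinase A (PKA) catalytic subunits, PKA regulatory subunits, PKA inhibitors, A-kinase anchoring proteins (AKAPs), CREB family factors, CRTC coactivators, EPAC proteins, beta-arrestins and phosphodiesterases.

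RNA was sequenced from haematopoietic stem cells (HSCs) sorted from the bone marrow of adult mice, about 2000 cells per library. In 3 libraries the cells were Ramp1+/+, called wild type here. In the other 3 the titles say Ramp1 Mut and the genotype field says Ramp-/-, and these are called mutant. The labels describe neither the allele nor whether the libraries came from different animals. The p-values therefore cover only the variation among the libraries. Some of it may be technical, but the Y-linked reads given below set replicate 1 of each group apart.

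Ramp1 pairs with the receptor Calcrl to form the receptor for the neuropeptide CGRP, which couples to Gs. Active Gs alpha stimulates membrane adenylyl cyclases, and the cAMP they make binds the regulatory subunits of PKA and so frees the catalytic subunits. Free PKA phosphorylates CREB1 and other targets, AKAPs hold the kinase at particular places in the cell, EPAC proteins pass a cAMP signal to Rap GTPases without PKA, and phosphodiesterases hydrolyse cAMP and end the signal.

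The palindrome TGACGTCA is the cAMP response element to which CREB1 and its relatives bind, and TGACG, which reads as CGTCA on the other strand, is its shorter core. Promoter windows of 300 bases, reaching from 250 before to 50 after a RefSeq transcription start (GRCm38.p6), were found for 30 of the 41 symbols, 60 windows in all, and were searched for both motifs on both strands. The palindrome stood in 2 of the 60 windows (3.33%), both of Prkar1a and both holding the same site, against 1.79% of all 32851 RefSeq windows. The core, which the palindrome contains, stood in 18 member windows (30.0%) of 14 genes, against 20.8% of all windows. A match describes the letters only and is not a measured binding site. Some of these sites follow, 5′ to 3′ on the gene's strand with the motif in capitals and 11 bases on either side, for the leading cyclase, PKA and phosphodiesterase genes and for the EPAC gene discussed later. They lie at chr11:109650889-109650918 (plus strand), chr8:88282953-88282979 (plus), chr3:146813033-146813059 (minus), chr4:102421510-102421536 (plus) and chr15:97767842-97767868 (minus). The motifs begin at positions -49, -28, -102, -34 and -191 relative to the start.
Prkar1a: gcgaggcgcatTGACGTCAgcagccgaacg
Adcy7: gatcatagagcCGTCAggggggtgggg
Prkacb: gggcttgaccgCGTCActtccggcgcg
Pde4b: atttggctgcaCGTCAattttctcatc
Rapgef3: cttgaacccacTGACGtagtctcgggt

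In wild-type HSCs the members reached 1 FPKM about as often as the protein-coding genes of the count table. At least 1 FPKM in each of the 3 wild-type libraries was reached by 31 of the 41 symbols. This compares with 32% of all 35275 genes and 72.4% of the 14546 protein-coding genes of the count table. The 72.4% is not a matched share, since the 41 symbols include Adcy1, Adcy2 and Adcy8, which are outside the count table. The same 31 symbols also reached 1 FPKM in each mutant library. At least 10 FPKM in every wild-type library was reached by 13. The median of the 31 was 9.65 FPKM, against 14.6 FPKM for the 11272 genes that passed the same limit. The PKA regulatory subunit Prkar1a led with a mean of 188.5 FPKM, above 97.3% of those genes. Prkacb, Prkar2b, Pde4b and Akap8 followed in that order, and the wild-type ranges of these neighbours did not overlap. Further down, Adcy7 stood clear of Arrb2, Akap1 of Arrb1, and Crtc3 of Adcy3, while the other 23 of the 30 neighbouring pairs overlapped. Levels are compared per length, and a bulk library cannot tell fewer expressing cells from less RNA per cell.

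**Figure D1:**
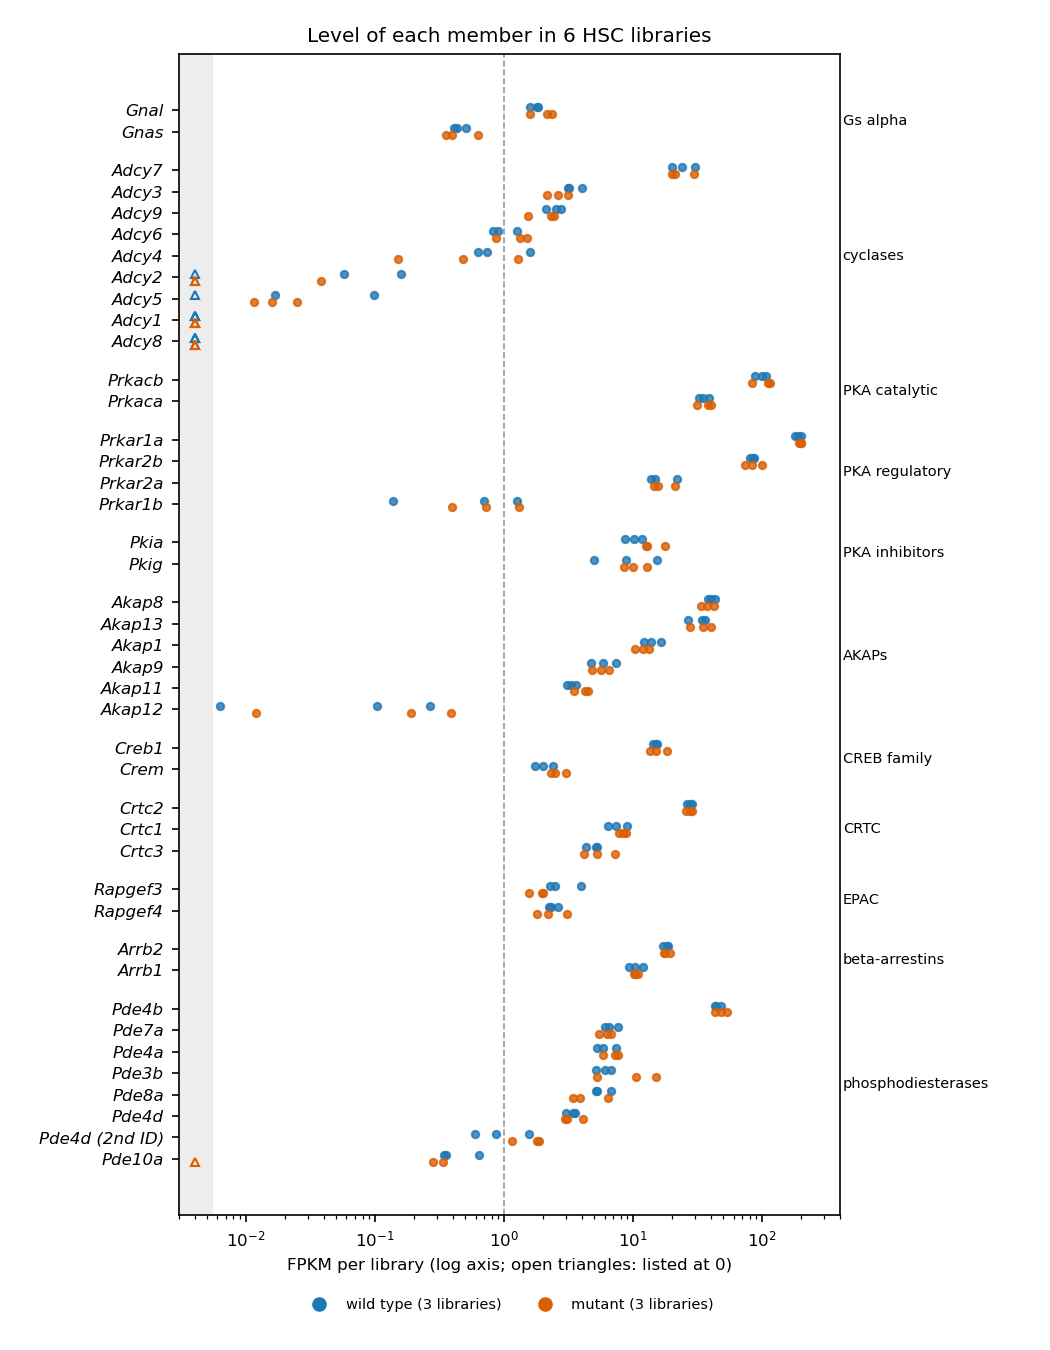
FPKM (log axis) of all 42 rows in the 6 HSC libraries, grouped by family and ordered by wild-type mean, with wild-type libraries in blue, mutant libraries in orange, open triangles for values listed at 0 and a dashed line at 1 FPKM. Prkar1a sat between 178 and 200.4 FPKM in every library, and Adcy1 and Adcy8 were listed at 0 in all 6.

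Libraries held 22796771 to 26734561 counted reads, so the limit that a count of 0 allows, 3 reads, was 0.112 to 0.132 CPM, read counts scaled to library size (counting error only). Ramp1 measured 91.4, 88.3 and 91.0 FPKM in wild type, against 3.53, 2.66 and 1.35 FPKM in mutant libraries, and for Calcrl the log2 difference was 0.27 (SE 0.15). All 10 genes of the HSC marker list were above 0 in every library. They include Kit, Procr, Mecom and Hlf, but also Cd48 (7.17 to 19.2 FPKM) and Flt3 (10.7 to 23.6 FPKM), which are known as markers of progenitors. The list had summed levels of 1331 to 1612 FPKM in wild type, against 1350 to 1714 FPKM in mutant. Wild-type replicate 1 and mutant replicate 1 held 6527 and 6137 reads of Y-linked genes, and the other 4 libraries at most 2. Reads of the X-linked gene Xist numbered 10 and 5 in those libraries and 1456 to 3540 in the other 4. Replicate 1 of each group was thus not a technical repeat of replicates 2 and 3. The 8 neutrophil markers summed to 35.1, 312.7 and 783 FPKM in wild type, against 171.7, 825 and 1089 FPKM in mutant, with Elane at 0 in mutant replicate 1. The 6 erythroid markers summed to 4.25 to 42.3 FPKM in wild type, against 46.1 to 177 FPKM in mutant, ranges that do not overlap, with Hbb-bt among those at 0 in wild-type replicate 3. The part of these markers in the results was not tested.

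The Gs alpha genes had the lowest summed FPKM of the 11 families as deposited, with limits on the Gnas and Gnal values that are given after them. Gnal, which encodes the olfactory Gs relative, measured 1.84, 1.59 and 1.80 FPKM in wild type, against 2.16, 2.33 and 1.58 FPKM in mutant libraries. Gnas, which encodes Gs alpha itself together with imprinted products such as XLas and Nesp55, measured 0.410, 0.509 and 0.434 FPKM in wild type, against 0.622, 0.398 and 0.357 FPKM in mutant libraries. The Gnas values rest on 35 to 56 reads per library, and both genes overlapped between the groups. By comparison, Gnai2, which encodes an inhibitory alpha subunit, measured 330 ± 13.4 FPKM in wild type (SD, n = 3).

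Another gene model lies over part of Gnas. On the opposite strand of mm10 chromosome 2, from 174330319 to 174346712, lies the gene model Gm20721, listed at 0 to 0.0271 FPKM. In GENCODE M21, a mouse annotation of the same build, its exons cover 96.4% of the 1182 coding bases of the Gnas transcripts Gnas-202 and Gnas-208, of 394 codons each. Over all exonic bases of Gnas the share is 13.1%. The deposited length of Gnas, 3947 bases, equals that of Gnas-204, a transcript of 2 exons without overlap. The sources used here do not state whether counting used strand, so reads of Gnas and Gm20721 cannot be told apart, and the part of this overlap in the low value was not tested. Of the exonic bases of Gnal, 7.63% lie in exons of Mppe1 on the opposite strand, which had 10.9 to 17.7 FPKM. The part of that overlap in the Gnal values was not tested either.

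A single isoform dominated the cyclases. Adcy7, a cyclase that G protein beta-gamma subunits enhance, measured 24.1, 20.04 and 29.9 FPKM in wild type, against 29.4, 20.02 and 21.1 FPKM in mutant libraries, with the groups overlapping. It held 75.1% ± 4.39 (SD, n = 3) of the summed cyclase FPKM in wild type and 77.7% ± 4.15 in mutant cells. The calmodulin-stimulated Adcy3 was next with 10.7% ± 2.03 in wild type, and Adcy9, which is largely insensitive to forskolin, held 7.52% ± 0.187. Adcy6 and Adcy4 had wild-type means of 0.992 and 0.980 FPKM. Both fell below 1 FPKM in at least 1 wild-type library, and Adcy4 ranged from 0.1496 to 1.58 FPKM over all 6. Adcy5 stayed at or below 0.0975 FPKM and Adcy2 at or below 0.159 FPKM, and the neuronal Adcy1 and Adcy8 were listed at 0 in every library. Adcy1, Adcy2 and Adcy8 are outside the count table, and Adcy5 did not pass the filter on low counts, so none of these 4 was tested between genotypes. In GENCODE M21, 22.1% of the exonic bases of Adcy3 lie in exons of Cenpo on the opposite strand, which had 5.18 to 8.12 FPKM.

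PKA was the most abundant layer. Prkar1a (ENSMUSG00000020612, mm10 chromosome 11, 109649405 to 109669656), the type I alpha regulatory subunit, measured 199, 188 and 178 FPKM in wild type, against 199, 200.4 and 193 FPKM in mutant libraries. Its coefficient of variation over the 6 libraries was 4.46%. The type II subunit Prkar2b measured 79.9, 85.0 and 86.5 FPKM in wild type, against 73.7, 98.7 and 83.6 FPKM in mutant libraries. Prkar1a overlapped between the groups, and the mutant range of Prkar2b contained its wild-type range. In wild type, Prkar1a held 65.0% ± 1.20 of the summed regulatory FPKM, Prkar2b 29.0% ± 2.26 and Prkar2a 5.77% ± 1.26 (SD, n = 3), while Prkar1b had a mean of 0.702 FPKM and 0.244% of the sum.

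Of the 2 catalytic subunits, Prkacb exceeded Prkaca in all 6 libraries. Prkacb measured 99.2, 87.7 and 106.2 FPKM in wild type, against 115, 110.7 and 83.3 FPKM in mutant libraries. Prkaca measured 32.2, 34.5 and 38.5 FPKM in wild type, against 39.8, 31.0 and 37.9 FPKM in mutant libraries. Mutant libraries were both the highest and the lowest for each of the 2 genes. Prkacb held 73.6% ± 1.88 of the catalytic sum in wild type and 73.7% ± 4.70 in mutant cells. Summed regulatory FPKM stood at 2.20 ± 0.229 times summed catalytic FPKM in wild type, and at 2.18 ± 0.301 times in mutant cells (SD, n = 3 each). The peptide inhibitors of the free catalytic subunit, Pkia and Pkig, were lower, and Pkia was the higher of the pair in all libraries but wild-type replicate 2. Pkig measured 4.94, 15.2 and 8.82 FPKM in wild type, against 8.45, 12.7 and 9.87 FPKM in mutant libraries, with the mutant libraries inside the wild-type range.

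**Figure D2:**
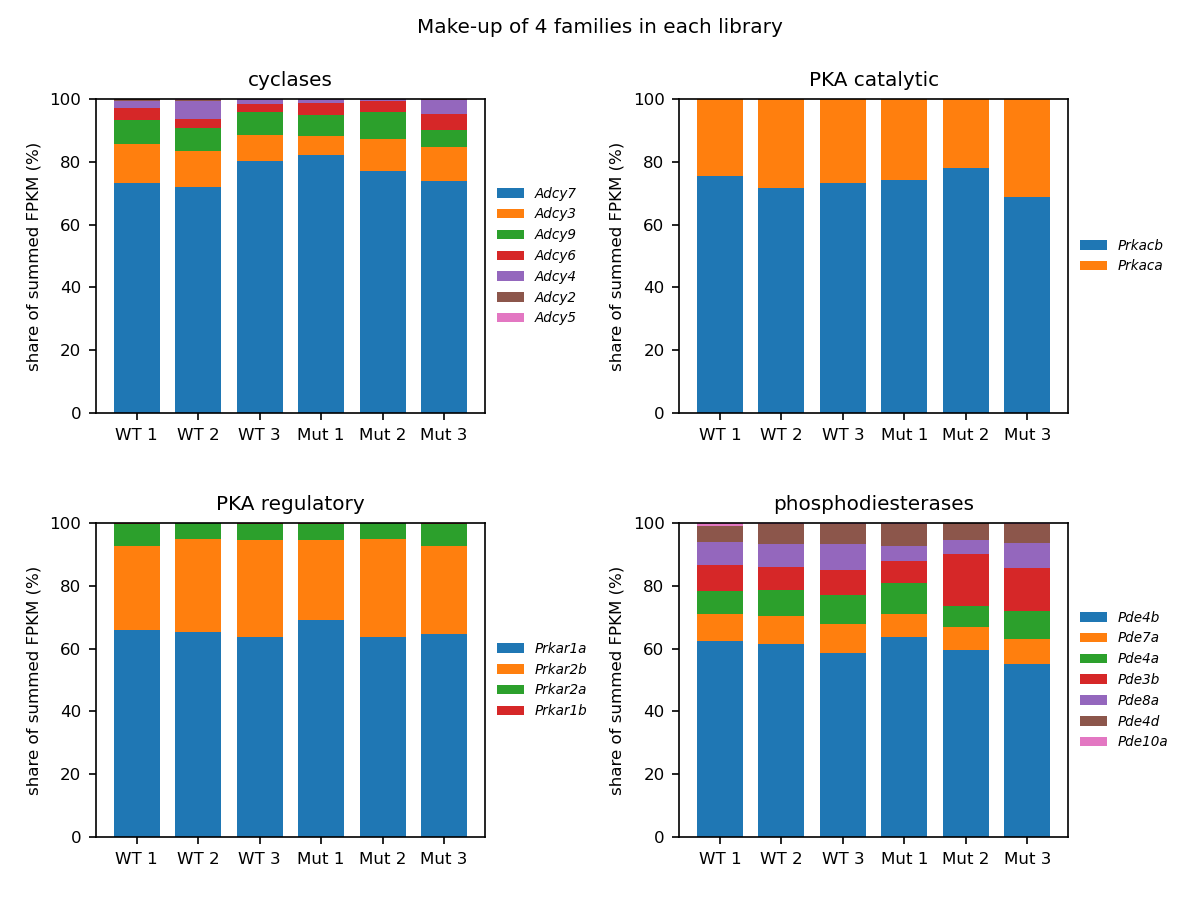
Stacked bars give each isoform's share (%) of the summed FPKM of its family in each of the 6 libraries, for cyclases, PKA catalytic subunits, PKA regulatory subunits and phosphodiesterases (both Pde4d rows summed). Adcy7, Prkacb, Prkar1a and Pde4b each held the largest share in all 6 libraries, and the share of Pde3b was larger in mutant replicates 2 and 3, at 16.7% and 13.5%, than in the other 4 libraries.

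Among the AKAPs, the nuclear anchor Akap8 was highest per length in every library but mutant replicate 2, where Akap13 exceeded it. Akap8 measured 43.1, 38.2 and 40.0 FPKM in wild type, against 42.1, 33.3 and 37.6 FPKM in mutant libraries. Akap13, which is also a guanine nucleotide exchange factor, had 36.2, 26.69 and 33.9 FPKM in wild type, against 39.8, 35.0 and 27.5 FPKM in mutant libraries. For both, the genotypes overlapped, while the lowest wild-type value of Akap8 was above the highest of Akap13. By raw reads, which grow with gene length, Akap13 led the family with 56.8% and Akap8 had 21.1%. The mitochondrial anchor Akap1 averaged 14.1 FPKM, the centrosomal and Golgi anchor Akap9 5.98 FPKM, and Akap11 3.31 FPKM. Akap12, also known as gravin, never exceeded 0.387 FPKM.

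Creb1 and Crtc2 had the highest levels of the 2 CREB family and 3 CRTC members. Creb1, the factor that PKA phosphorylates, measured 14.2, 15.2 and 15.1 FPKM in wild type, against 15.1, 18.3 and 13.5 FPKM in mutant libraries. Its relative Crem averaged 2.03 ± 0.330 FPKM in wild type, against 2.60 ± 0.362 FPKM in mutant cells (SD, n = 3 each). Crtc2, a coactivator held in the cytoplasm until it is dephosphorylated, measured 25.9, 27.4 and 28.6 FPKM in wild type, against 28.5, 27.7 and 25.7 FPKM in mutant libraries. The 2 groups of Crtc2 values span nearly the same range. Crtc1 and Crtc3 averaged 7.53 and 4.90 FPKM in wild type. Creb1 was the only member on chromosome 1, which also carries Ramp1, and starts 26.6 Mb before it.

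Of the EPAC genes, Rapgef3 (EPAC1) and Rapgef4 (EPAC2), neither led in every library: Rapgef3 was higher in wild-type replicates 1 and 2 and Rapgef4 in the other 4 libraries. Rapgef4 measured 2.31, 2.24 and 2.63 FPKM in wild type, against 3.08, 2.19 and 1.81 FPKM in mutant libraries. The beta-arrestins, which end receptor coupling to G proteins, were steady. Arrb2 measured 18.2, 17.1 and 18.7 FPKM in wild type, against 17.7, 17.3 and 19.1 FPKM in mutant libraries, a coefficient of variation of 4.43%, the lowest of the 31 expressed members. Arrb1 averaged 10.5 FPKM in both groups.

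Pde4b was the highest of the 7 phosphodiesterases of the set. Pde2a and Pde1b, which are outside these 7 and do not enter the share below, had 25.7 and 17.2 FPKM in wild type. This cAMP-specific enzyme measured 44.2, 43.2 and 47.9 FPKM in wild type, against 48.1, 53.5 and 43.3 FPKM in mutant libraries, and held 60.7% ± 1.93 of the summed FPKM of the 7 phosphodiesterases in wild type (SD, n = 3). Its relatives Pde4a and Pde4d averaged 6.13 and 3.30 FPKM in wild type. The cAMP-specific Pde7a averaged 6.71 FPKM, the cGMP-inhibited Pde3b 5.96 FPKM and the IBMX-insensitive Pde8a 5.71 FPKM. Pde10a, which cleaves both cyclic nucleotides, never exceeded 0.639 FPKM and was listed at 0 in mutant replicate 2. The second Pde4d row (ENSMUSG00000074661) is a stretch of 1855 bases that begins 647 bases past the end of the main one, on chromosome 13, and averaged 1.003 FPKM in wild type, against 1.61 FPKM in mutant cells.

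No member passed an adjusted p of 0.05. In edgeR's quasi-likelihood test with Benjamini-Hochberg adjustment over all 14443 genes tested, 0 of the 38 tested members were called, against 0.0208% of all genes, and the smallest adjusted p of a member was 0.999. DESeq2 also called 0 members, with a smallest adjusted p of 0.604 and 0.284% of genes called, and limma on log2(FPKM + 1) called 0, with 0.0248% of genes called. At an unadjusted p under 0.05, edgeR had 3 members (7.89%) against 3.99% of all genes. DESeq2 had 3 and limma 1, for which no share of all genes is given. The authors' deposited table likewise has 0 members with an adjusted p under 0.05.

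Fold changes of the members were about as large as those of all genes. The log2 fold change, mutant minus wild type, lay within 0.15 of 0 for 20 of the 38 and beyond 0.5 for 6, for which no share of all genes is given. Its median was 0.04 against 0.00 for all genes. The median of its absolute value was 0.13 against 0.14, so the median over all genes also lay within 0.15 of 0. It was above 0 for 25 members (65.8%) and for 50.1% of all genes. FPKM values of the 2 groups did not overlap for 4 members (10.5%), against 10.3% of all genes tested. Of these, Pkia was higher in the mutant libraries (5.99% of all genes), and Rapgef3, Adcy3 and Pde10a were lower (4.32% of all genes). For the family leaders the log2 fold change was 0.07 (SE 0.08) for Prkar1a, 0.08 (SE 0.13) for Prkacb, -0.07 (SE 0.18) for Adcy7, 0.10 (SE 0.10) for Pde4b, 0.08 (SE 0.13) for Creb1 and 0.22 (SE 0.22) for Gnal. For Adcy7 and Creb1 the sign changed when single libraries were left out.

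**Figure D3:**
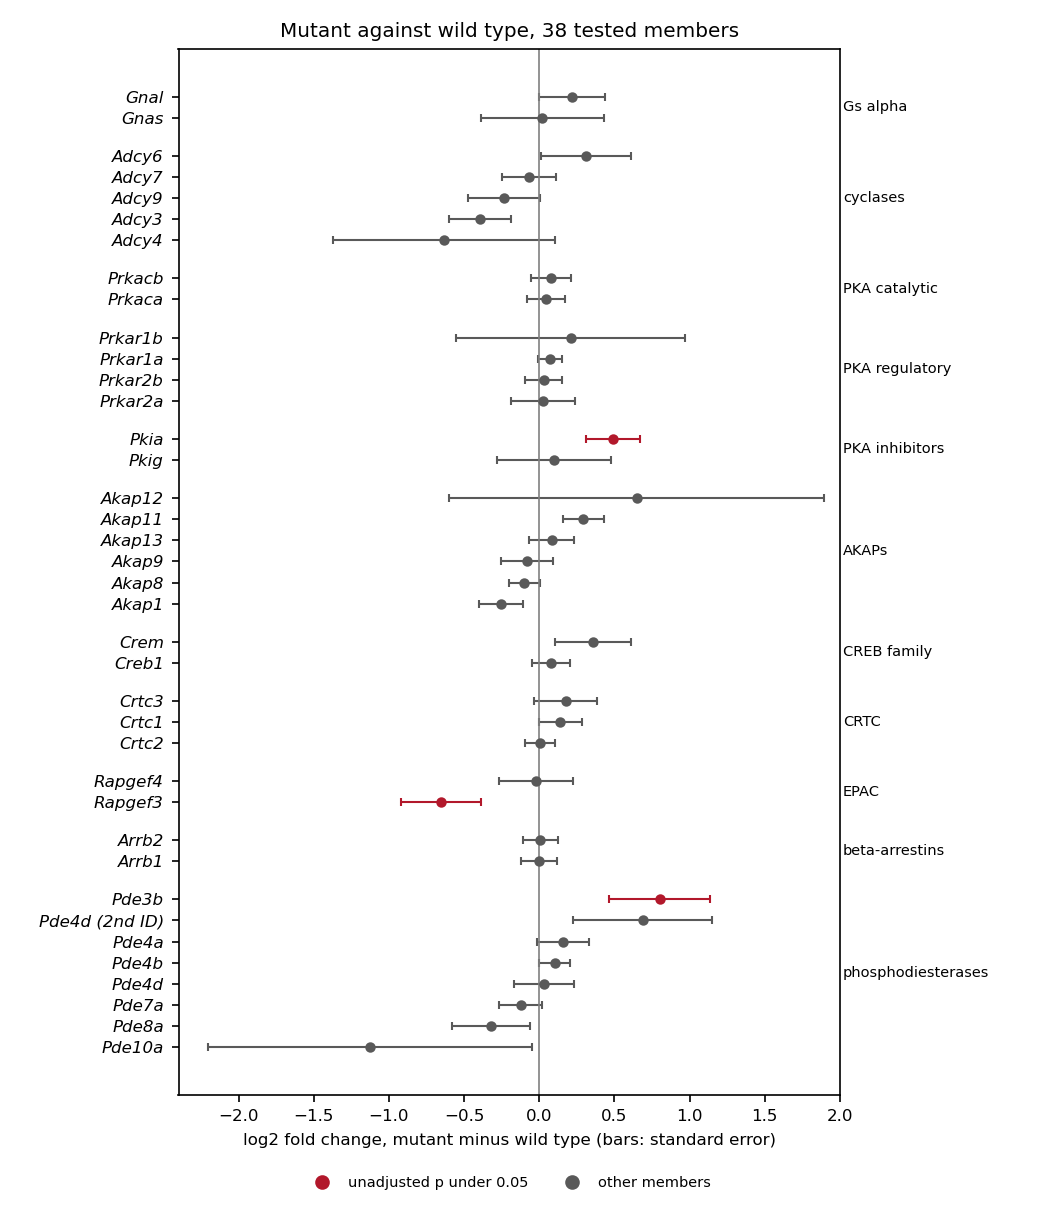
Points are log2 fold changes of the 38 tested members (edgeR, mutant minus wild type) with standard errors as bars, grouped by family, in red where the unadjusted p was under 0.05. Of the 38, 20 lay within 0.15 of 0, as did the median absolute value over all genes, 0.14. The 3 red points are Pkia, Rapgef3 and Pde3b, and the longest bars belong to members with few reads, among them Akap12 and Pde10a.

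The 6 members with the smallest unadjusted p were Pkia, Rapgef3, Pde3b, Akap11, Adcy3 and Akap1. None passed after adjustment. Pkia (ENSMUSG00000027499, chromosome 3, 7366604 to 7445366) measured 8.68, 10.2 and 11.8 FPKM in wild type, against 12.9, 17.5 and 12.5 FPKM in mutant libraries. All 3 mutant libraries lay above all 3 wild-type libraries, with mutant replicate 2 the highest. The log2 fold change was 0.49 (SE 0.18; edgeR, unadjusted p = 0.0260), and it was 0.31 without mutant replicate 2. The authors' deposited table gives 0.48 with an adjusted p of 0.682.

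Rapgef3 (ENSMUSG00000022469, chromosome 15, 97744770 to 97767972) measured 3.91, 2.49 and 2.26 FPKM in wild type, against 1.99, 1.95 and 1.56 FPKM in mutant libraries. The mutant libraries lay below all wild-type libraries, and wild-type replicate 1 stood highest. The log2 fold change was -0.65 (SE 0.27; edgeR, unadjusted p = 0.0415), and it was -0.38 without wild-type replicate 1. The authors' deposited table gives -0.66 with an adjusted p of 0.865. The ratio of Rapgef3 to Rapgef4 was 1.69, 1.11 and 0.859 in wild type, against 0.646, 0.889 and 0.862 in mutant libraries, so the groups overlap in that ratio.

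Pde3b (ENSMUSG00000030671, chromosome 7, 114415281 to 114539251) encodes the phosphodiesterase through which insulin lowers cAMP in fat and liver. It measured 6.0, 5.18 and 6.71 FPKM in wild type, where 847 to 1030 reads were counted, and 5.27, 15.0 and 10.6 FPKM in mutant libraries, with 789, 2643 and 1727 reads. Mutant replicates 2 and 3 lay above every wild-type library, while mutant replicate 1 lay among them. The log2 fold change was 0.80 (SE 0.34; edgeR, unadjusted p = 0.0461), 0.42 without mutant replicate 2 and 1.12 without mutant replicate 1. With single libraries left out, the adjusted p (edgeR) was 0.252 without mutant replicate 1, 0.706 without mutant replicate 3 and at least 0.999 without any other library. Neutrophil markers were also higher in mutant replicates 2 and 3 than in mutant replicate 1, and wild-type replicate 3, with neutrophil markers at 783 FPKM, had Pde3b at 6.71 FPKM. Their part in the Pde3b values was not tested. The coefficient of variation of Pde3b over the 6 libraries, 48.4%, was the highest among the 31 expressed members.

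Akap11, which anchors PKA and also binds glycogen synthase kinase, measured 3.27, 3.06 and 3.60 FPKM in wild type, against 4.45, 4.24 and 3.47 FPKM in mutant libraries. Mutant replicate 3 fell within the wild-type range, and the log2 fold change was 0.29 (SE 0.14; edgeR, unadjusted p = 0.0644). Adcy3 measured 4.03, 3.20 and 3.15 FPKM in wild type, against 2.16, 2.62 and 3.10 FPKM in mutant libraries. The groups met closely, at 3.15 and 3.10 FPKM, and the log2 fold change was -0.39 (SE 0.20; edgeR, unadjusted p = 0.0914). Without both libraries that hold Y-linked reads the log2 fold change of Adcy3 was -0.14. Akap1 measured 13.8, 12.2 and 16.4 FPKM in wild type, against 10.4, 11.9 and 13.2 FPKM in mutant libraries. These ranges overlap, and the log2 fold change was -0.25 (SE 0.15; edgeR, unadjusted p = 0.127).

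**Figure D4:**
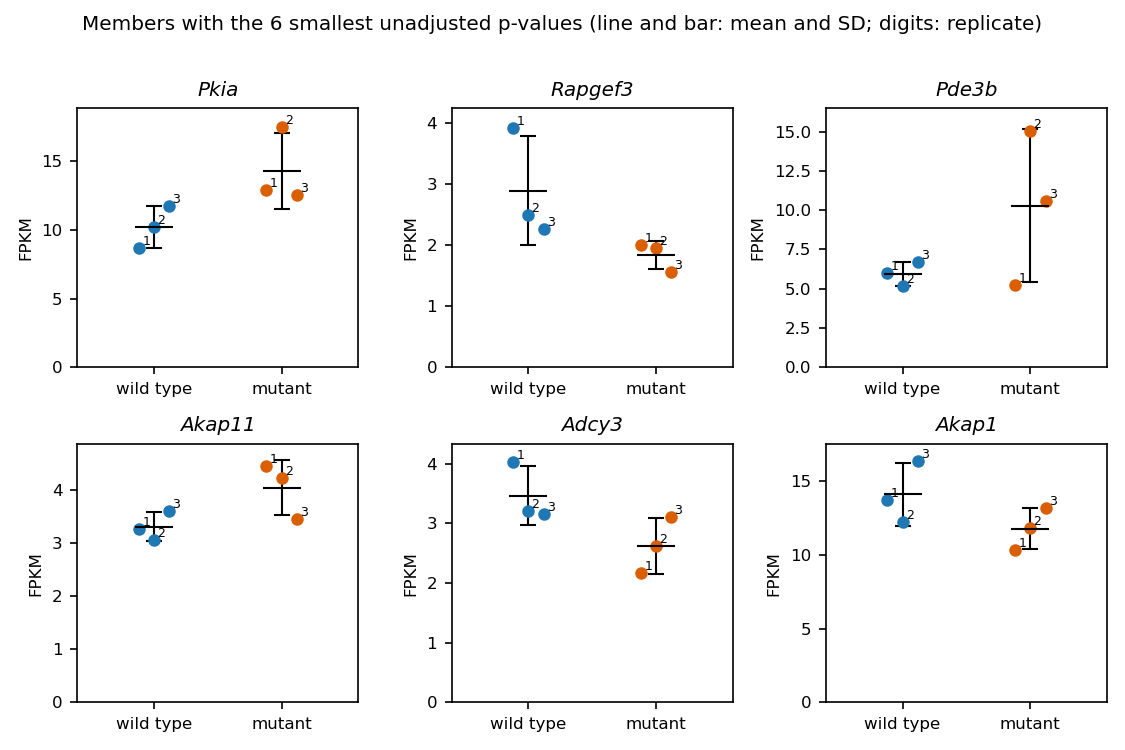
FPKM of the 6 members with the smallest unadjusted p in each library (points, with the replicate number), with the mean and SD of each group of 3. Pkia, Rapgef3 and Adcy3 did not overlap between genotypes, while mutant replicate 1 of Pde3b, at 5.27 FPKM, lay among the wild-type libraries.

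Among the remaining members, the larger fold changes came with larger errors. Pde10a had -1.12 on the log2 scale (SE 1.08), the second Pde4d row 0.69 (SE 0.46), Akap12 0.65 (SE 1.25) and Adcy4 -0.63 (SE 0.74). These 4 were low in every library, none above 1.86 FPKM, and Adcy4 moved from -0.07 without wild-type replicate 2 to -1.68 without mutant replicate 3. Crem had 0.36 (SE 0.25), Pde8a -0.32 (SE 0.26), Adcy6 0.31 (SE 0.30), Adcy9 -0.24 (SE 0.24), Prkar1b 0.21 (SE 0.76), Crtc3 0.18 (SE 0.21), Pde4a 0.16 (SE 0.17) and Crtc1 0.14 (SE 0.14). The other members, Gnas, Prkaca, Prkar2a, Prkar2b, Pkig, Akap8, Akap9, Akap13, Crtc2, Rapgef4, Arrb1, Arrb2, the main Pde4d row and Pde7a, were within 0.15 of 0. Of these, Gnas had 0.02 (SE 0.41) and Pkig 0.10 (SE 0.38), so their intervals are wide, whereas Crtc2 had 0.00 (SE 0.10) and Akap8 -0.10 (SE 0.10).

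**Figure D5:**
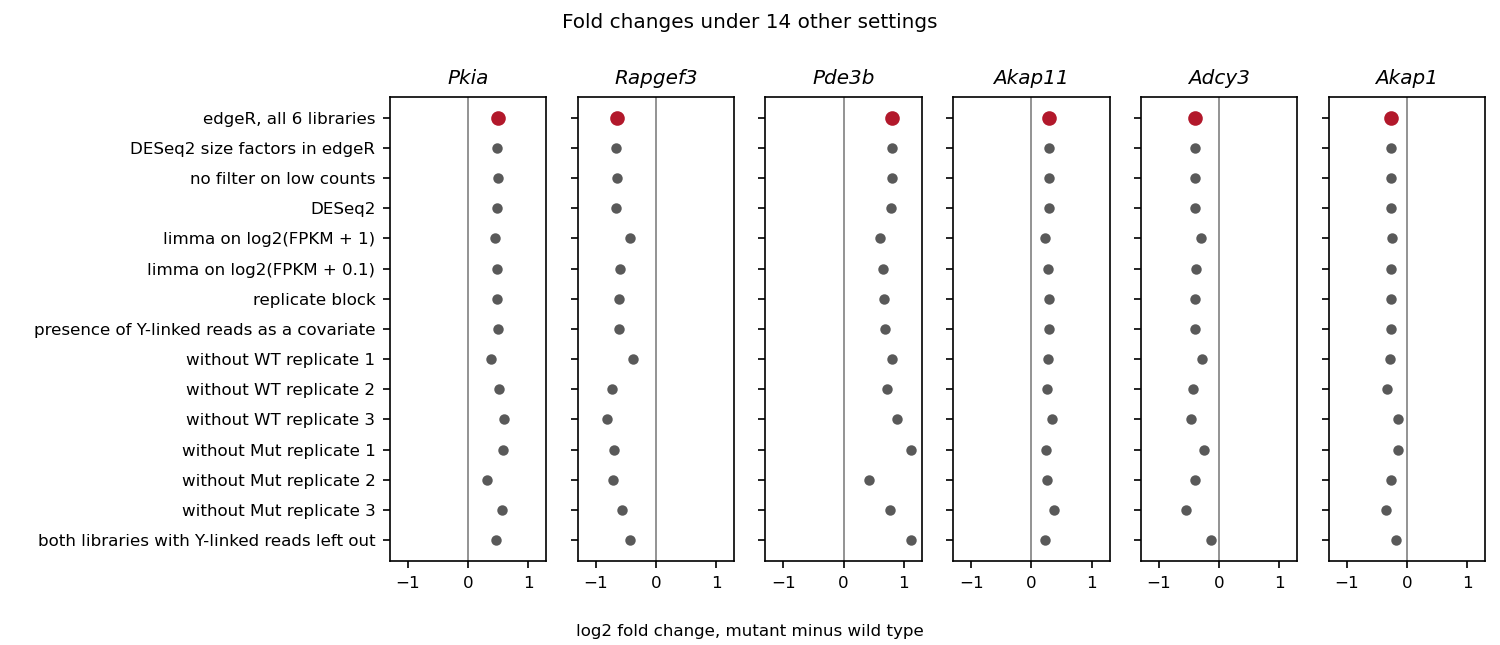
Log2 fold changes (mutant minus wild type) of the 6 members with the smallest unadjusted p, from the edgeR fit of all 6 libraries (red) and under 14 other settings (grey). All 6 kept their sign in every setting shown, and Pde3b moved most among the single libraries left out, from 0.42 to 1.12.

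Some sums and ratios of families are given here, and none of them was tested. Summed cyclase FPKM was 32.7 ± 4.69 in wild type, against 30.1 ± 5.10 in mutant cells (SD, n = 3 each). The sum of the 7 phosphodiesterases, without Pde2a and Pde1b, was 74.3 ± 6.40 and 81.3 ± 7.58 (SD, n = 3 each). The ratio of these phosphodiesterases to cyclases was 2.16, 2.52 and 2.19 in wild type, against 2.11, 3.46 and 2.76 in mutant libraries. The lowest and the highest of the 6 ratios were both mutant. Type I regulatory subunits stood at 1.88 ± 0.0881 times type II subunits in wild type, and at 1.96 ± 0.272 times in mutant cells.

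Other genes of the pathway were followed in 8 lists. None of their members passed the edgeR test after adjustment, and the counts here are at an unadjusted p under 0.05, to be read against 2.28% of all genes higher and 1.7% lower. Among Gs-coupled receptors, 0 of 12 tested were at that level. Calcrl was the highest at 50.3 FPKM in wild type, and others present were the VIP receptor gene Vipr2 at 23.1 FPKM and the prostaglandin receptor gene Ptger4 at 19.5 FPKM. Among other G protein subunits, led by Gnai2, 0 of 20 were higher and 1 lower. That gene was Gna12, which encodes another alpha subunit, with 37.96, 34.8 and 23.5 FPKM in wild type, against 22.1, 7.27 and 6.67 FPKM in mutant libraries. Every mutant library of Gna12 lay below every wild-type library (log2 fold change -1.43, SE 0.45; edgeR, unadjusted p = 0.0129). Among other phosphodiesterases, 0 of 13 reached the level, and the cGMP-stimulated Pde2a was at 25.7 FPKM in wild type, beside the delta subunit gene Pde6d at 25.9 FPKM. Among other AKAPs, PKA inhibitors and soluble cyclase it was 0 of 9, and the cyclase-associated protein gene Cap1 was highest over the 6 libraries (mean 62.9 FPKM). Cap1 ranged from 16.9 to 90.8 FPKM, and in wild type the ezrin gene Ezr, at 60.3 FPKM, was above its mean of 54.6 FPKM.

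Downstream lists held the other small p-values. Among 13 Rap GTPases and regulators, led by Rap1b at 297.6 FPKM in wild type, 4 had a higher and 9 a lower fold change. One of these 13 was lower at an unadjusted p under 0.05, the Rap exchange factor gene Rapgef1, at 8.27, 5.47 and 4.36 FPKM in wild type, against 4.36, 2.68 and 2.59 FPKM in mutant libraries (log2 fold change -0.91, SE 0.28; edgeR, unadjusted p = 0.0122). Mutant replicate 1 of Rapgef1 was level with wild-type replicate 3. Among 15 other CREB family factors and coactivators, with Atf1 highest over the 6 libraries (mean 41.1 FPKM) and Atf4 close to it (40.8 FPKM), 1 was higher, the salt-inducible kinase gene Sik1 (log2 fold change 0.73, SE 0.26). Among 11 receptor kinases and other arrestins, led by Txnip, 1 was lower, the alpha-arrestin gene Arrdc2 (log2 fold change -0.53, SE 0.20). Gna12, Rapgef1, Sik1, Arrdc2, Junb and Fos are named after their values were seen.

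Of 21 tested rows of cAMP response genes, a list that also holds the members Pde4b, Pde4d, Crem and Pde10a, 14 had a higher and 7 a lower fold change in mutant cells, with a median of 0.20, and 3 were higher at an unadjusted p under 0.05. These were Sik1, Junb (log2 fold change 0.75, SE 0.30) and Fos (2.28, SE 0.96), the last 2 being immediate early genes that many signals induce. Fos measured 1.52, 7.55 and 7.67 FPKM in wild type, against 2.41, 31.4 and 46.8 FPKM in mutant libraries. As with Pde3b and the neutrophil markers, mutant replicates 2 and 3 were high and mutant replicate 1 was not. Wild-type replicate 1 was the lowest wild-type library for Fos and for the summed neutrophil markers, though not for Pde3b. Replicate 1 of each group is also the library with Y-linked reads, and the part of that difference in these values was not tested. Ier2 was the most abundant gene of that list, at 67.6 ± 4.85 FPKM in wild type, against 80.9 ± 20.9 FPKM in mutant cells (SD, n = 3 each).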

How the data were processed

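RNA-seq tables of 6 libraries of sorted mouse HSCs, 3 wild type and 3 Ramp1 mutant, were used as deposited. Build mm10 and the tools CASAVA, STAR, HTSeq 0.6.1 and DESeq2 are listed in the submitters' processing notes, which give no role or order. The annotation release and the strand setting are not given in the sources used here. Per the file headers, the authors deposited raw read counts per gene with coordinates, their normalized values (a signal, left out here), FPKM, log2 fold changes and p-values, and a separate FPKM table of 35275 genes. The count table has 18368 genes.

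The deposited counts were fitted with edgeR 4.0.16 under R 4.3.3 (TMM scaling, filterByExpr, quasi-likelihood F test, two-sided), which left 14443 genes, with Benjamini-Hochberg adjustment over all of them and a threshold of 0.05. The standard error of a fold change is its log2 size over the root of its F value. DESeq2 1.42.0, limma 3.58.1 on log2(FPKM + 1) and on log2(FPKM + 0.1), DESeq2 size factors, no filter, a covariate for Y-linked reads, the replicate number as a block, and libraries left out were alternatives. The fits were also run on simulated counts drawn gene by gene, and the outcome is not reported here. Libraries of a group differed by more than sampling noise. Overlaps and transcript lengths came from GENCODE M21 of the same build, in which 26 of 38 members had the start and end of the count table, and promoters came from RefSeq (GRCm38.p6). Promoter windows were not used for Crem, Pde3b, Pde7a, Arrb2, Pkia, Akap12, Arrb1, Crtc2, Adcy8, Gnal and Adcy6.

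Values in every library are given for the highest member of each family, for the 6 members with the smallest unadjusted p and for second members where needed for the order. Of each pathway list the gene with the highest mean FPKM over all 6 libraries is named. Of 31 symbols for Gs-coupled receptors, Pthr1 had no match. The members, lists and naming rule were chosen with earlier results of these data known. Some genes of the lists are not reported here.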

Additional observations from a re-analysis of the deposited data

How the results depend on the processing

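Members called stayed at 0 in all 14 alternatives. Genes called numbered 3, 44 with DESeq2, and 2 to 6 with single libraries left out (6 without mutant replicate 2). The members' median log2 fold change was -0.035 without both libraries that hold Y-linked reads, and -0.01 to 0.09 with single libraries left out. Deviations from the group mean correlated over genes at 0.138, 0.00181 and -0.0940 for same-numbered libraries, and at -0.133 to 0.146 for differently numbered ones. With 3 libraries per group such deviations are not independent, so they cannot decide whether the replicate number pairs libraries. With the replicate number as a block, 2 genes and 0 members were called and the members' median was 0.04. Members expressed numbered 29 to 34 at other limits. Shares of raw reads were 84.5% for Gnal, 84.0% for Prkacb, 21.1% for Akap8, 95.4% for Creb1, 44.6% for Crtc2, 30.9% for Arrb2 and 56.3% for Pde4b, since they are not scaled by length.

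Of 38 log2 fold changes, 20 kept their sign throughout; for the others the cause was not tested. Without both libraries that hold Y-linked reads the values were -0.31 for Gnas, -0.0713 for Prkaca, -0.30 for Prkar1b, -0.0866 for Pkig, -0.0561 for Crtc2, -0.0090 for Crtc3, -0.0139 for Pde4a and -0.19 for Pde4d. With the block Gnas had -0.0090 and Arrb1 0.0045, and with the Y covariate they had -0.0115 and 0.0028. Arrb1 had 0.0025 and 0.0032 in limma, and Crtc2 -0.0006 with DESeq2 size factors and -0.0032 in DESeq2. With single libraries left out the ranges were -0.24 to 0.16 for Gnas, -0.24 to 0.0817 for Adcy7, -0.0161 to 0.14 for Prkaca, -0.30 to 0.94 for Prkar1b, -0.17 to 0.25 for Prkar2a, -0.0933 to 0.14 for Prkar2b, -0.23 to 0.61 for Pkig, -0.21 to 0.0918 for Akap9, -0.34 to 1.81 for Akap12, -0.0259 to 0.20 for Akap13, -0.0575 to 0.16 for Creb1, -0.0406 to 0.0324 for Crtc2, -0.0374 to 0.33 for Crtc3, -0.24 to 0.13 for Rapgef4, -0.0895 to 0.0878 for Arrb1, -0.0491 to 0.0389 for Arrb2 and -0.12 to 0.11 for Pde4d. Members that kept their sign also moved by over 1.5 times, among them Adcy4 (-1.68 to -0.07), Pde10a (-1.64 to -0.53), Pde3b (0.42 to 1.12), Pde8a (-0.65 to -0.14), Gnal (0.10 to 0.36) and Akap1 (-0.35 to -0.14).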
